A study of Homo sapiens with 2 samples.

Results

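Among the nonadherent cells harvested from a human blood differentiation culture, 63 of 7550 kept cells carried abundant RNA for fibrillar collagens together with RNA for smooth muscle proteins. The study differentiated the induced pluripotent stem cell line iPS11, a line reprogrammed from foreskin fibroblasts, into aggregates, enriched the CD34+ cells and cultured them for 5 days through the endothelial-to-hematopoietic transition, the step at which specialised endothelial cells round up and become blood cells. All cells shared this line and 1 serum-free medium whose additions included bFGF, VEGF, SCF, IL-3, IL-6, IL-11, IGF-1, BMP4, Flt3L and the ROCK inhibitor Y-27632. The plates had 4 coatings (no protein, VCAM1, DLL4, or DLL4 with VCAM1, as recombinant Fc fusion proteins), 3 wells of each were pooled, and each condition was stained with 1 DNA-barcoded antibody (hashtag 0252, 0253, 0254 or 0255) before all 4 were mixed into 1 droplet library of 3′ ends of transcripts. The sources used here do not tie a hashtag to a coating, so values are given by hashtag and no coating is compared.

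The collagen-producing cells were selected on their own RNA. A kept cell was a barcode assigned to 1 hashtag with at most 36000 unique molecular identifiers (UMIs, each standing for 1 captured transcript), at most 6000 genes and at most 18% mitochondrial UMIs. A kept cell was taken as a member when its UMIs of *COL1A1*, *COL1A2* and *COL3A1* summed to at least 20, and the 7487 other kept cells served as the comparison. The high collagen RNA of the members is therefore given by the choice and is no finding, and every contrast with the other cells is a description without a test. There was 1 library and no replicate: levels are UMIs per 1000000 (CPM) of the summed cells with exact Poisson 95% intervals, shares have exact Clopper-Pearson 95% intervals, and both cover counting error only.

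Stromal cells build the matrix that holds a tissue together. Fibroblasts and their relatives secrete fibrillar collagens of types I, III and V, lay down fibronectin, and, when mechanically loaded or exposed to TGF-beta, assemble actin and myosin stress fibres and are then called myofibroblasts. Smooth muscle cells and pericytes share much of this contractile program. Stromal cells also surround the sites where blood forms in the embryo and supply ligands such as CXCL12 and KIT ligand. In differentiating pluripotent cultures they arise from mesoderm beside the endothelium and blood.

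The label was checked against its markers. *TAGLN* (transgelin, an actin-binding protein of smooth muscle, at chr11:117070086-117078180 on hg19) stood at 3692 CPM (95% interval 3582 to 3805) in the members and 7.33 CPM (6.89 to 7.80) in the other cells. *ACTC1* (cardiac alpha-actin, at chr15:35082308-35087790) stood at 2684 CPM (2589 to 2780) against 5.05 CPM (4.69 to 5.44). Neither gene was used by the rule, but both are markers given with the label, so their levels are no independent evidence for it. Both were high in the members of each hashtag. *TAGLN* was 3709, 3563, 3326 and 3944 CPM in the members of 0252, 0253, 0254 and 0255, and between 5.56 and 11.7 CPM in the other cells. *ACTC1* was 2458, 816 and 3405 CPM in the members of 0252, 0253 and 0254 and 2727 CPM in those of 0255, so the 6 members of 0253 were the lowest, and still far above the 2.50 to 12.3 CPM of the other cells. Without its top droplet in each hashtag, *ACTC1* was 1540 CPM in 0252 and 1987 CPM in 0254, where 1 droplet held 510 of 1121 UMIs. The rule's own genes stood at 1943 CPM for *COL1A1* (chr17:48261462-48278993), 929.9 CPM for *COL3A1* (chr2:189839099-189877472) and 475.9 CPM for *COL1A2* (chr7:94024207-94060539). All 10 stromal genes that the study used to name such a cluster were at least 4-fold higher in the members, *COL1A1* and *COL3A1* of the rule among them. That list was chosen by the study on these same cells and is not independent evidence.

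The members were spread unevenly over the hashtags. There were 8 among 2136 kept cells of 0252 (0.375%, 95% interval 0.162 to 0.737), 6 among 1996 of 0253 (0.301%, 0.110 to 0.653), 14 among 1847 of 0254 (0.758%, 0.415 to 1.27) and 35 among 1571 of 0255 (2.23%, 1.56 to 3.08). Hashtag 0255 held 20.8% of the kept cells and 55.6% of the members, and its interval did not overlap that of any other hashtag. The intervals of 0252, 0253 and 0254 overlapped. Each hashtag was 1 pool of wells, so the difference cannot be told apart from well-to-well variation. At a threshold of 10 collagen UMIs the share of 0255 was 3.31%. At 50 it was 1.08% (0.632 to 1.73), which overlapped the interval of 0254 (0.487%, 0.223 to 0.923). Without 13 members of 0255 that resembled each other, described below, it was 1.41% (0.887 to 2.13), which again overlapped that of 0254.

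**Figure D1:**
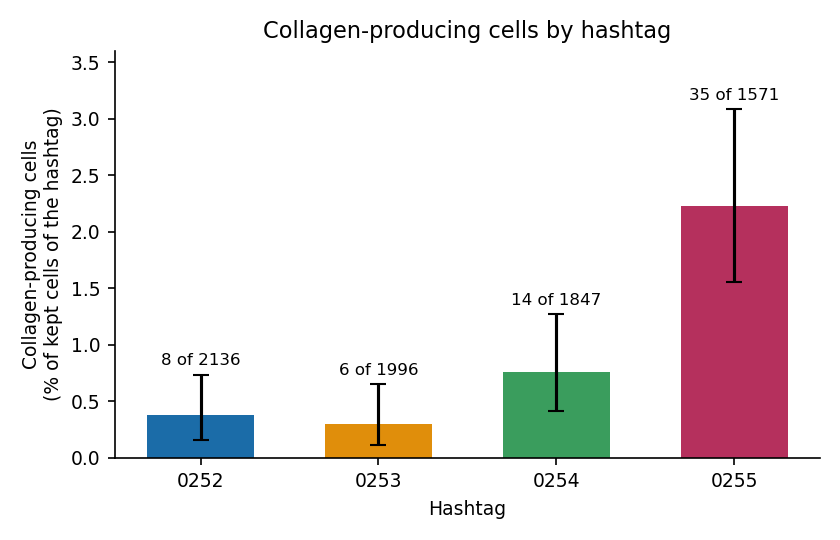
Share of collagen-producing cells among the kept cells of each hashtag (bars, in percent), with exact Clopper-Pearson 95% intervals as error bars and the counts above them. Hashtag 0255 stood at 2.23%, and the other 3 hashtags between 0.301% and 0.758%.

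Most other kept cells gave no UMI of the rule's collagens: 6657 had 0 UMIs of the 3 genes, 616 had 1, 97 had 2, 89 had 3 to 9 and 28 had 10 to 19. Of the members, 30 had 20 to 49 UMIs and 33 had 50 or more, with a highest value of 273. The 9 cells just outside the threshold (15 to 19 UMIs) and the 9 just inside it (20 to 24 UMIs) all carried *TAGLN*, *ACTC1*, *CALD1* and *SPARC*. The medians outside and inside were 26 and 28 UMIs for *TAGLN* and 16 and 15 for *CALD1*, but 11 and 20 for *ACTC1* and 9 and 17 for *SPARC*. The blood gene *PTPRC* had a UMI in 6 of 9 cells outside and 2 of 9 inside, and *SPN* in 6 and 3. Of these cells, 3 of 9 just outside and 7 of 9 just inside belonged to 0255. A choice by the given markers *TAGLN* and *ACTC1*, already seen to be high in the members, overlapped with the rule's choice. There were 77 kept cells with at least 20 UMIs of these genes together. Of these, 58 were members (75.3% of the 77, and 92.1% of the members), and the rest were not.

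The limits on kept cells removed many barcodes of this kind. Of 100 single-hashtag barcodes with at least 20 collagen UMIs, 37 exceeded a limit (95% interval 27.6% to 47.2%), against 901 of 8388 single-hashtag barcodes without (10.7%, 10.1 to 11.4). The limits on UMIs or genes took 31 of the 37, whose median was 45296 UMIs, and the mitochondrial limit took the other 6. The excess of 0255 was also present before these limits, with 15, 14, 23 and 48 such barcodes in 0252, 0253, 0254 and 0255, or 0.626%, 0.624%, 1.12% and 2.68% of the single-hashtag barcodes. No barcode called negative for all hashtags reached the threshold (0 of 1009, for which the limit of 3 counts is a share of 0.297% and the exact upper bound 0.365%).

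The members' droplets differed little in depth from the others over all hashtags, but not within each. The median was 18636 UMIs and 4331 genes in the members against 18316 UMIs and 4196 genes in the other cells. By hashtag the medians of the members were 20620, 19037, 23094 and 13898 UMIs in 0252 to 0255, and those of the other cells 18551, 18770, 18075 and 17650. The members were thus the deeper in 0252, 0253 and 0254 and the shallower in 0255, which included the smallest droplet (6142 UMIs). In all, the members held 1141042 UMIs and the other cells 140969908, and a gene with 0 UMIs in the members could be at up to 2.63 CPM by the limit of 3 counts, and at up to 3.23 CPM by its exact Poisson interval. The median mitochondrial share was 8.86% in the members and 13.1% in the other cells.

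The members of 0255 stood apart from those of the other hashtags, and this bears on several results. Each member was drawn down to 6000 UMIs and each pair was compared by the mean chi-square per gene, which is near 1 when droplets differ by counting alone. Among the 595 pairs of 0255, 32 lay under 1.2 (5.38%), while none of the 28, 15 and 91 pairs within 0252, 0253 and 0254 did, nor any of the 378 pairs over these hashtags combined. Between 1.11% and 1.66% of pairs of other kept cells drawn from within 1 hashtag lay under 1.2. Of the 35 members of 0255, 20 had another member under 1.2. Grouping the members by this distance gave a largest set of 13 members, all of 0255, with a median of 1.27 between them. Some of those 20 lay outside this set, so likeness was not confined to it. These 13 had a median of 11035 UMIs, carried 9.04 to 33.5 UMIs of pan-blood genes and 6.10 to 19.8 of neutrophil genes per 10000 UMIs, and differed from each other in at least 8 of the 16 bases of their droplet barcodes. What set them apart was not tested. Results are given below with and without 0255 or these 13 where it matters, and this grouping was made after the data were seen.

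Across 9094 genes with at least 10 CPM in the members or in the other cells, 961 were at least 4-fold higher in the members, a share of 10.6%, and 411 were at least 4-fold lower, a share of 4.52%. The median log2 ratio over these genes was -0.14. Counts of gene lists below are to be read against 10.6% higher and 4.52% lower, and since the members were chosen on collagen RNA, nothing is inferred from a list that exceeds them. The minimum itself fixed many calls: 1287 genes reached 10 CPM in the members only, and 504 of these were at or under 2.5 CPM in the other cells, so that they had to be at least 4-fold higher. In the same way 80 genes had to be lower. Counts and medians of the lists describe the genes that passed and are no support for a list. Genes that had to be higher in this way numbered 3 of the 14 higher genes for collagen processing, 11 of 22 for matrix glycoproteins, 7 of 9 for proteoglycans, 6 of 25 for contractile genes, 9 of 15 for TGF-beta and YAP response genes and 8 of 14 for BMP genes. In these 3′ counts each transcript gives 1 tag whatever its length, so levels are not scaled by gene length.

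The other collagens followed the 3 of the rule. Of 5 measured fibrillar collagens outside the rule, 4 were at least 4-fold higher, 3 of them by the minimum. *COL5A1*, which regulates the width of type I fibrils, was 364 CPM against 1.48, and *COL11A1*, a fibril component of cartilage and early mesenchyme, was 437 CPM against 2.28. By hashtag *COL11A1* was 235, 266, 352 and 590.3 CPM in the members of 0252 to 0255, highest in 0255. *COL2A1*, the main cartilage collagen, was 8.76 CPM against 24.7 in the other cells. All 4 measured basement membrane collagens were higher: *COL4A1* and *COL4A2*, which form the sheet under endothelium and epithelium, stood at 849 and 1099.9 CPM against 4.70 and 7.14. Of 24 collagens of the remaining types 7 were measured, all through the members alone, and 6 of them had to be higher by the minimum. The most abundant were *COL6A2* at 127 CPM and *COL6A1* at 105 CPM.

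Collagen processing genes fold, modify and cross-link the chains. Of 24 measured genes for collagen processing, 14 were at least 4-fold higher and none lower, with a median log2 ratio of 2.25. The cross-linking enzymes *LOXL2* (151 CPM against 0.617) and *LOX* (139 against 2.71) and the collagen chaperone *SERPINH1* (650.3 against 55.7) were among them. General folding enzymes such as *PPIB* (949 against 617 CPM) and *P4HB* (344 against 204 CPM) were within 4-fold. The same held for the secretory pathway, where 2 of 32 measured genes were higher and the median log2 ratio was 0.45.

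Matrix glycoproteins were higher nearly throughout. Of 27 measured, 22 were at least 4-fold higher and none lower, with a median log2 ratio of 6.50. *SPARC*, which binds collagen, was 1666, 1199, 2172 and 2284 CPM in the members of 0252 to 0255 and 22.1 CPM over the other cells. *FN1* (fibronectin) was 1870, 974, 1185 and 1156 CPM against 6.65 CPM. *TGFBI*, a matrix protein named for its induction by TGF-beta, was 1003 CPM against 4.37 CPM. The members of all 4 hashtags were above the other cells in each of these genes. Of 11 measured proteoglycans 9 were higher: *LUM* (lumican) was 279.6 CPM (249.7 to 312) against 1.28 CPM, but *DCN* (decorin), a mainstay of adult connective tissue, gave only 9 UMIs in the members and 0 in the other cells. *SRGN*, the proteoglycan of blood cell granules, was lower, at 52.6 CPM against 401. Proteases and inhibitors included *MMP2* (290 against 8.56 CPM) and *SERPINE2* (421 against 6.18 CPM), with 8 of 12 measured genes higher. All 3 measured laminin chains, parts of the basement membrane, were higher, with *LAMB1* at 73.6 CPM the most abundant.

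**Figure D2:**
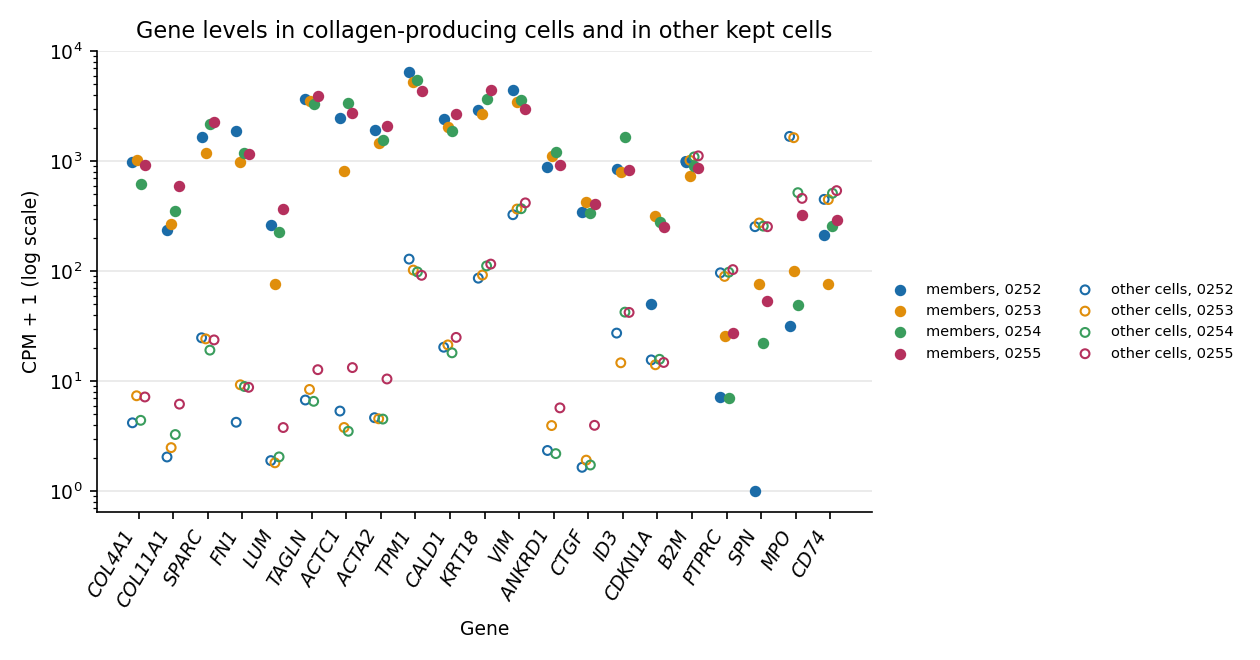
Levels of 21 genes in the collagen-producing cells (members, filled circles) and in the other kept cells (open circles) of each hashtag, as CPM plus 1 on a log axis. Matrix and contractile genes of the members lay above those of the other cells in every hashtag, *B2M* stood at 883 CPM in the members and 1050.4 CPM in the other cells, and *PTPRC*, *SPN* and *MPO* were lower in the members.

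The contractile genes were abundant in the members. Of 33 measured smooth muscle and contractile genes, 25 were at least 4-fold higher and none lower, with a median log2 ratio of 3.27. Their summed level was 30525 CPM in the members against 3303 CPM in the other cells. *TPM1* (tropomyosin, which lies along actin filaments) was 6521, 5228, 5446 and 4362 CPM in the members of 0252 to 0255 against 106 CPM in all other cells. *ACTA2* (smooth muscle alpha-actin) was 1920, 1474, 1567 and 2080 CPM against 4.75 CPM. *CALD1* (caldesmon, a regulator of actomyosin) was 2349 CPM against 17.1 to 24.01 in the other cells of the 4 hashtags, *MYL9* (the regulatory myosin light chain) 1901 CPM against 37.015, and *CNN1* (calponin) 181 CPM against 0.979. Every member of the 63 lay above the median other cell of its hashtag in summed contractile RNA, with a lowest value of 79.7 and a median of 298 UMIs per 10000. *MYH11*, the myosin heavy chain of mature smooth muscle, gave 1 UMI in all members, and *DES* (desmin) gave 10.

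Serum response factor drives many contractile genes through the CArG box, here the letters CC, then 6 bases that are each A or T, then GG, a motif that reads the same on both strands in this definition. RefSeq promoter windows were found for 32 of the 36 contractile genes (56 windows), and the 250 bases before each start were searched. The box was in 9 windows (16.1%), and in 1.16% of all 35116 windows. The genes were *ACTA1*, *ACTC1*, *ACTG2*, *ACTN1*, *CNN2*, *FLNA*, *MYLK*, *SMTN* and *TPM4*. Of these, *ACTA1* gave 0 UMIs in the members, *CNN2*, *SMTN* and *TPM4* were within 4-fold, and the other five were at least 4-fold higher. The stretches around the box of 4 of them are shown because they belong to actins and actin-binding proteins of this list. They run 5′ to 3′ along the gene, with the CArG boxes in capitals, and were placed on hg19 by exact match:
ACTC1: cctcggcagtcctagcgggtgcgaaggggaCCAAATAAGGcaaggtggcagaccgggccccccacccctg
ACTG2: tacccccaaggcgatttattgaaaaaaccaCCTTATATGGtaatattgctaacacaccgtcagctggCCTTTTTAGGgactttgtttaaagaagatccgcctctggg
CNN2: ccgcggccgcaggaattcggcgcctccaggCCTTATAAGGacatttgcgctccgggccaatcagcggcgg
FLNA: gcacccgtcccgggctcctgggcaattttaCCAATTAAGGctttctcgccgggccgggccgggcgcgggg

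These stretches lie at chr15:35087820-35087889 (minus strand) for *ACTC1*, chr2:74119995-74120101 (plus strand) for *ACTG2*, chr19:1026488-1026557 (plus strand) for *CNN2* and chrX:153603057-153603126 (minus strand) for *FLNA*. The box begins 109 bases before the start of *ACTC1*, 110 and 73 bases before that of *ACTG2*, 89 before that of *CNN2* and 94 before that of *FLNA*. A match of letters is a description of sequence and shows no binding, and none of the data measured binding. *FLNA* (filamin A, an actin cross-linker) was 475.9 CPM in the members against 94.3 in the other cells.

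Genes that serve as readouts of TGF-beta and of the mechanical YAP and TEAD pathway were high as well. Of 21 measured, 15 were at least 4-fold higher and none lower, with a median log2 ratio of 4.03. *ANKRD1* (chr10:92671853-92680844), a classic YAP target, was 886, 1124, 1203 and 924 CPM in the members of 0252 to 0255 and 2.41 CPM in the other cells. *CTGF* (also *CCN2*, chr6:132269316-132272512), a matrix-associated signalling protein, was 347, 425, 337 and 411 CPM against 1.199 CPM. *CYR61* was 147 CPM against 0.660 CPM. The 4 hashtags lay within a narrow band for these genes, and the members of every hashtag lay above the other cells of every hashtag. The ligand gene *TGFB1* was within 4-fold, at 177 CPM against 133 CPM.

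TEAD proteins recognise the letters GGAATG, which were searched on both strands after the levels of these genes had been seen. They were in 8 of 44 windows of the TGF-beta and YAP list (18.2%), in 15 of 56 windows of the contractile list (26.8%) and in 11.9% of all windows. The 2 promoters shown next belong to the list's most abundant YAP targets, with GGAATG in capitals:
CTGF: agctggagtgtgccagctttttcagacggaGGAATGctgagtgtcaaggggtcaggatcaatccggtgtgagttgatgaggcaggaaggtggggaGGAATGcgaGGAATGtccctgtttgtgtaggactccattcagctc
ANKRD1: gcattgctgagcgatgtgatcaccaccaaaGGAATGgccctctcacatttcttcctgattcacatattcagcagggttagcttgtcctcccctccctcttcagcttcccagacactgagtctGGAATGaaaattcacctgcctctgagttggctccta

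They lie at chr6:132272572-132272711 for *CTGF* and chr10:92680937-92681094 for *ANKRD1*, both on the minus strand. Windows with 2 or more copies made up 330 of 35116. As with the CArG box, a match says nothing of binding in these cells.

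BMP signalling genes showed a like picture. Of 19 measured, 14 were at least 4-fold higher and none lower. *ID3*, an inhibitor of helix-loop-helix factors and a direct BMP target, was 855, 799, 1652 and 829.8 CPM in the members of 0252 to 0255 against 29.5 CPM, with the highest value in 0254. *BAMBI*, a decoy receptor, was 301 CPM against 19.1 CPM, and *BMP4* itself was 58.7 CPM against 0.553 CPM. BMP4 protein was an ingredient of the medium of all cells.

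Of 37 ligands that stromal cells can offer to blood cells 19 were measured, 12 of them through the members alone. At least 4-fold higher were 13, of which 9 had to be by the minimum, and none was lower. *MDK* (midkine, a heparin-binding growth factor) was 2143 CPM against 128, *IGF2* 392 against 5.38, *SFRP1* (a Wnt inhibitor) 272 against 1.38, *DKK1* (another Wnt inhibitor) 182 against 0.766, and *CXCL12*, the chemokine that holds blood stem cells in their niche, 85.9 against 0.433. *KITLG*, the gene for KIT ligand, gave only 4 UMIs in the members. Neither *VCAM1* nor *DLL4*, whose proteins coated some plates, gave a UMI in the members, and both were near 0 in the other cells (0.0213 and 0.106 CPM).

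Among Notch pathway genes 3 of 15 measured were at least 4-fold higher and 2 lower, with a median log2 ratio of 0.36. The 3 were the ligand *JAG1* (90.3 against 5.48 CPM), the mural cell receptor *NOTCH3* (48.2 against 5.48 CPM) and the target *HES4* (175 against 10.8 CPM). *HES4* differed between hashtags in the members, at 99.1, 24.98, 255.2 and 183 CPM in 0252 to 0255, and in the other cells too, at 4.35, 4.15, 13.6 and 26.0 CPM. Both groups were lower in 0252 and 0253 than in 0254 and 0255. The members' value in 0253 was 3 UMIs in 2 of 6 droplets. Without the top droplet *HES4* was 69.8 CPM in the members of 0252 and 9.62 CPM in those of 0253. For integrins, the receptors that grip the matrix, 7 of 15 measured genes were higher and 4 lower (8 and 2 without 0255). The collagen receptor chain *ITGA1* was 125 CPM against 0.546 and *ITGB1* 718 CPM against 90.2, while the platelet chain *ITGA2B* and the leukocyte chain *ITGB2* were lower in the members (14.9 against 76.3, and 12.3 against 63.7 CPM).

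**Figure D3:**
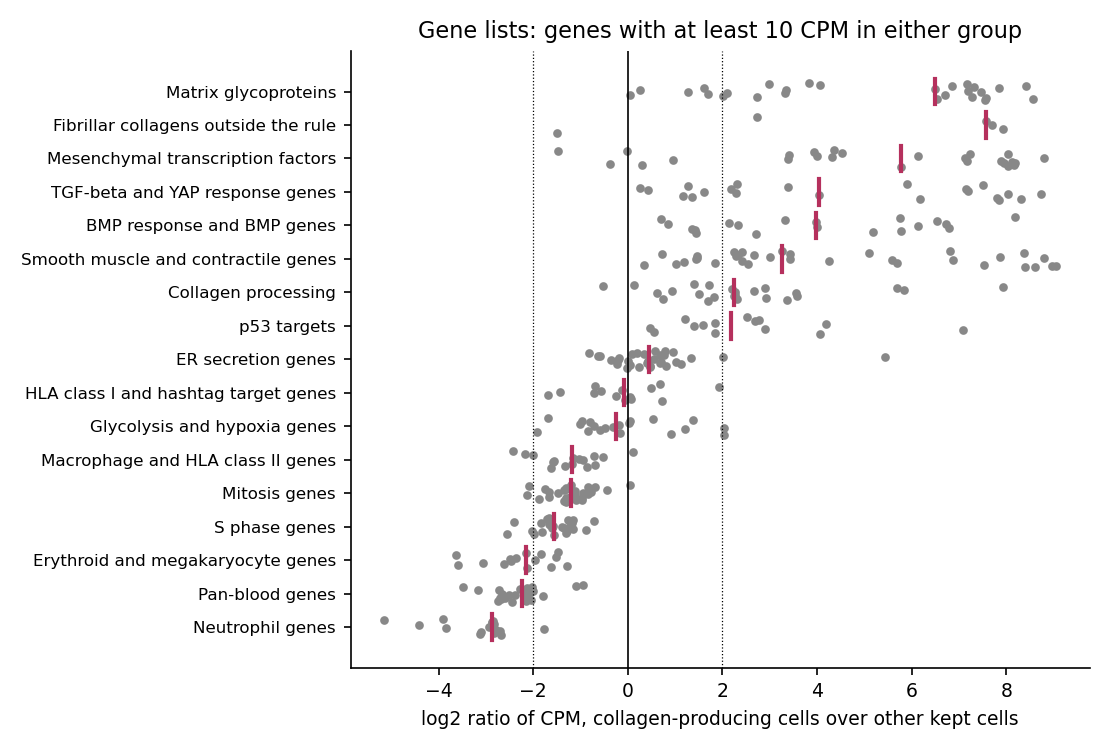
Log2 ratio of CPM, collagen-producing cells over other kept cells, for each measured gene of 17 lists (points), with the median of each list as a red bar, dotted lines at 4-fold and points spread vertically for legibility. The median was 6.50 for matrix glycoproteins, 3.27 for contractile genes, near 0 for HLA class I genes and -2.87 for neutrophil genes.

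The keratin genes *KRT18* and *KRT8* were, over all members, at least as abundant as the actin genes *ACTC1* and *ACTA2*. *KRT18* (chr12:53342655-53346690) was 2904, 2714, 3697 and 4462 CPM in the members of 0252 to 0255 against 99.1 CPM, and its partner *KRT8* was 2916 CPM over all members against 82.9 CPM. *KRT19* was 177 CPM against 2.02 and *KRT7* 52.6 CPM against 0.0638. These simple keratins are typical of epithelium and of mesothelium, the sheet that lines body cavities. Of 6 measured epithelial genes 5 were at least 4-fold higher, these 4 keratins and the junction gene *TJP1* (106 against 4.02 CPM), and 1 was lower. All 3 measured mesothelium and epicardium genes were higher, each of them 1 of the same keratins. Among genes that define epithelium, *EPCAM* gave 5 UMIs in the members (4.38 CPM against 26.8) and *CDH1* (E-cadherin) 1 UMI. The mesothelial genes *MSLN* and *CALB2* gave 0 UMIs and *WT1* and *UPK3B* 1 each. *VIM* (vimentin, the filament of mesenchyme) was 3437 CPM against 366.

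Markers of other possible cell types were looked up in the same way. *CDH5*, which defines endothelium, gave 0 UMIs in the members and 1.32 CPM in the other cells, although *FLT1* was 78.0 CPM against 2.21. The pluripotency genes *POU5F1* and *NANOG* gave 0 UMIs. Of 5 measured genes of that list 2 were higher, *LIN28A* (22.8 against 0.887 CPM) and *PODXL* (15.8 against 2.69 CPM), and 1 was lower. Of 13 pericyte genes 8 were measured and 7 of them higher, among them *PDGFRB* (82.4 against 10.1 CPM), *MCAM* (61.3 against 1.15 CPM) and *RGS5* (32.4 against 0.383 CPM), but *ABCC9* and *KCNJ8* gave 0 UMIs in the members. *PDGFRA*, a receptor of many fibroblasts, was 14.0 CPM against 0.0922. Of 14 cartilage and bone genes 3 were measured and 1, *SOX6*, was higher. The neural list had 1 measured gene, *STMN2* (50.8 against 0.0709 CPM), the endoderm list had *GATA6* (19.3 against 0.135 CPM), and the skeletal muscle list had no gene at least 4-fold higher. Of 13 trophoblast and amnion genes 5 were measured, all through the members alone, and 4 of them had to be higher by the minimum. The most abundant was *HAND1* at 71.9 CPM, a gene that mesoderm also expresses. Of 9 measured endothelial genes 2 were higher and 1 lower, and of 14 measured blood stem and progenitor genes 1 was higher and 6 lower.

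Heart muscle genes were detectable at low level. Of 10 measured heart muscle genes, 8 were at least 4-fold higher and 2 lower. All 8 had to be higher by the minimum. *MYL7* (atrial myosin light chain) was 105, 33.3, 21.3 and 56.6 CPM in the members of 0252 to 0255 against 0.156 CPM (57.2 CPM in 0252 without its top droplet), *PLN* (phospholamban, a calcium pump regulator) was 49.95 CPM (37.8 to 64.7) against 0.0922, and *NKX2-5*, a cardiac transcription factor, was 35.9 CPM against 0.121. After each cell was drawn down to 5000 UMIs, *MYL7* was seen in 22.2% of members, *PLN* in 14.3% and *NKX2-5* in 12.7%, and in 0.108% or less of other cells. *ACTC1*, which the heart shares with early smooth muscle, was seen in 84.1% of members and 1.36% of other cells at that depth. The ventricular gene *MYL2* gave 0 UMIs.

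Of 25 measured mesenchymal transcription factors, 20 were at least 4-fold higher and none lower, and 18 of these had to be higher by the minimum. *MEIS2* was the most abundant at 197 CPM against 18.97, followed by *PITX1* at 92.9 CPM against 8.70. The mesoderm factors *HAND1* (71.9 against 0.248 CPM), *HAND2* (57.0 against 0.206 CPM) and *NR2F2* (67.5 against 0.482 CPM) were near 0 in the other cells. Of 16 measured HOX genes 7 were higher. *HOXC8* (24.5 against 0.0567 CPM), *HOXD11* (21.9 against 0.0567 CPM) and *HOXA10* (41.2 against 2.90 CPM) were among them, while the blood-associated *HOXB4* was 16.7 CPM against 23.9.

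Several of the highest ratios belonged to genes outside these groups. Of genes with at least 100 CPM in the members, *RSPO3* (a Wnt-enhancing ligand, chr6:127439816-127520626) had the highest ratio, at 129 CPM against 0.227, or 568-fold. It was followed by *KCNE4* (a potassium channel subunit, 106 against 0.192 CPM). Further down came the mesenchymal cadherin *CDH11* (234.0 against 0.475 CPM), *PCDH7*, *CRABP2* (a retinoic acid carrier, 234.0 against 0.567 CPM), the cell cycle inhibitor *CDKN2B* (122 against 0.298 CPM) and the secreted protease *PRSS23* (703 against 1.90 CPM).

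Most cell cycle genes were within 4-fold. Of 28 measured mitosis genes 2 were at least 4-fold lower and none higher, with a median log2 ratio of -1.21, and of 24 S phase genes 3 were lower (6 without 0255), with a median of -1.57. *TOP2A* (topoisomerase of dividing cells) was 116 CPM against 297. The hashtags were not alike: the median ratio of the mitosis list was -1.22, -1.32 and -1.597 in 0252, 0254 and 0255 but 0.23 among the 6 members of 0253. Of 14 measured p53 targets, 7 were at least 4-fold higher. *CDKN1A* (p21, which stops the cell cycle) was 49.5, 316, 276 and 251 CPM in the members of 0252 to 0255 against 14.1 CPM over the other cells, and *GDF15* (a stress-induced secreted factor) was 6.19, 266, 97.2 and 54.7 CPM against 0.603 CPM. The members of 0252 were the lowest for both. In 0253, 1 droplet held 20 of the 38 UMIs of *CDKN1A*, which was 181 CPM there without it. *GDF15* was seen in 23 of 63 members, and 1 droplet held 30 of its 32 UMIs in 0253 and another 19 of 32 in 0254. Without those droplets it was 20.1 CPM in 0253 and 43.4 CPM in 0254. Of 20 measured glycolysis and hypoxia genes 18 were within 4-fold, with a median log2 ratio of -0.25.

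Blood RNA was present in the members' droplets, and its sums were below those of the other cells. *PTPRC*, the pan-leukocyte phosphatase CD45, was 6.19, 24.98, 6.08 and 26.4 CPM in the members of 0252 to 0255 and 88.7 to 102 CPM in the other cells. *SPN* (CD43, a sialoglycoprotein of blood cells) was 0, 74.9, 21.3 and 52.8 CPM against 252.9 to 274 CPM, and 1 droplet held 7 of the 9 UMIs in 0253. At 5000 UMIs a cell, *PTPRC* was seen in 6.35% of members and 34.7% of other cells. Of 24 pan-blood genes 21 were at least 4-fold lower and none higher, and their summed level was 1196 CPM against 4744 CPM, or 25.2% of that in the other cells. In each hashtag it was 15.03%, 24.1%, 21.0% and 30.7% for 0252 to 0255.

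Over all hashtags together, the blood lineages differed in how much of their RNA was in the members. Summed neutrophil genes (led by *MPO*, myeloperoxidase) stood at 13.04% of their level in the other cells, with 15 of 16 genes at least 4-fold lower. Summed macrophage and HLA class II genes (led by *CD74*, the invariant chain) stood at 42.3%, with 2 of 16 lower, or 7 of 16 without 0255. Summed erythroid and megakaryocyte genes (led by *HBG2*, fetal globin) stood at 28.1%, with 9 of 15 lower, but 1 member of 0253 with 230 such UMIs, 119 of them *HBG2*, made up much of this. Without that droplet the erythroid value was 14.6%, and within 0253 it went from 114% to 2.62%. The order of the lineages was not the same in each hashtag: in 0252 to 0255 the neutrophil sum was 2.39%, 5.596%, 7.91% and 55.01% of that in the other cells of the hashtag, and the macrophage sum 38.4%, 32.6%, 33.0% and 50.1%. Neutrophil RNA was therefore below macrophage RNA on this scale in 0252, 0253 and 0254 and above it in 0255, which held 35 of the 63 members. The macrophage sums were not typical of each member. In UMIs per 10000, the top members of 0252 to 0255 had 42.4, 21.6, 24.7 and 73.3. The member medians were 4.03, 7.11, 6.11 and 8.63, or 28.9%, 50.4%, 49.8% and 66.4% of the medians of the other cells. Among 63 blood genes with at least 50 CPM in the other cells, the level in members ran from 2.82% (*CLC*, of eosinophils and basophils) to 108% (*IFI16*, an interferon-inducible gene that stromal cells also express), with a median of 19.8%. *IFI16* is part of the macrophage sum above, as is *SPP1* at 62.0%. Among the 12 such genes of the macrophage list the lowest was *AIF1* at 18.5%, and the median was 46.7%.

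**Figure D4:**
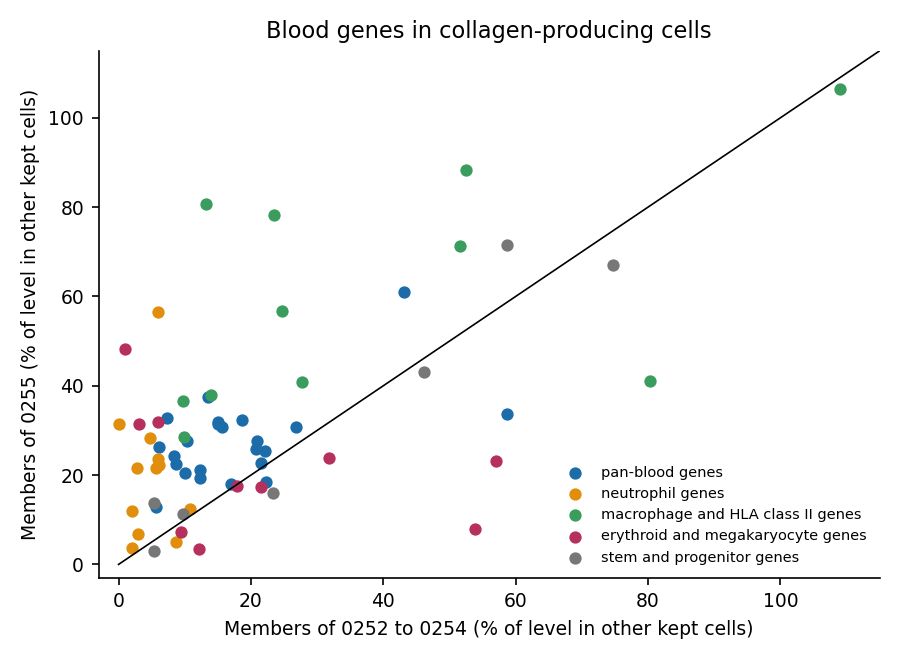
Level of 63 blood genes in the collagen-producing cells, as percent of the level in all other kept cells, for the 28 members of hashtags 0252 to 0254 (x axis) and the 35 members of 0255 (y axis), coloured by list, with the line of equality. Neutrophil genes lay at a median of 5.22% on the x axis and 21.6% on the y axis.

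The members of 0255 carried more neutrophil RNA than those of the other hashtags, but not more RNA of every blood list. The 35 members of 0255 had *MPO* at 322 CPM and *PRTN3* (proteinase 3) at 228 CPM, and the members of the other hashtags had 31.0 to 99.9 and 24.8 to 33.4 CPM. The other cells ran the opposite way, with *MPO* at 459 CPM in 0255 and 1682 CPM in 0252. Counted per droplet, neutrophil RNA had a median of 10.0 UMIs per 10000 in the members of 0255 and 0.862, 2.03 and 1.602 in those of 0252, 0253 and 0254. The median of the other cells was 3.87 in 0255 and 4.99, 5.82 and 3.85 in the other hashtags. Over all 35, the typical member of 0255 was thus above the typical other cell of its hashtag, as were 23 of the 35, while the sum of the other cells was higher. The 13 members that resembled each other had a neutrophil median of 16.3 (6.10 to 19.8). The other 22 members of 0255 had a median of 3.13, below the 3.87 of the other cells. Their values ran from 0 to 26.0, so some of these 22 carried as much neutrophil RNA as the 13. Erythroid RNA was alike, with a median of 4.11 in the members of 0255 and 1.91 in its other cells, against 0.225, 0.498 and 0.436 in the members of 0252, 0253 and 0254. Its median was 5.65 in the 13 members that resembled each other and 1.32 in the other 22 members of 0255, below that of the other cells. Pan-blood RNA had medians of 14.3 against 2.94, 12.1 and 5.76. Stem and progenitor RNA had medians of 3.46, 3.61, 3.10 and 3.53 in the members of 0252 to 0255, which were close to each other. *HBG2* was 84.9 CPM in 0255 and 209.6 CPM over the members of the other hashtags, but 15.5 CPM there without the 1 droplet that held 119 of 128 UMIs. The members of 0255 ranged from 0 to 49.1 UMIs of pan-blood genes per 10000, so they did not carry it evenly, and 5 of the 35 lay above the lowest 5% of other cells of that hashtag. Without 0255, the neutrophil list's median log2 ratio went from -2.87 to -4.07 and the macrophage list's from -1.18 to -1.86. Without the 13 members that resembled each other, the summed neutrophil level went from 13.04% to 9.09% and the pan-blood level from 25.2% to 23.8%.

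**Figure D5:**
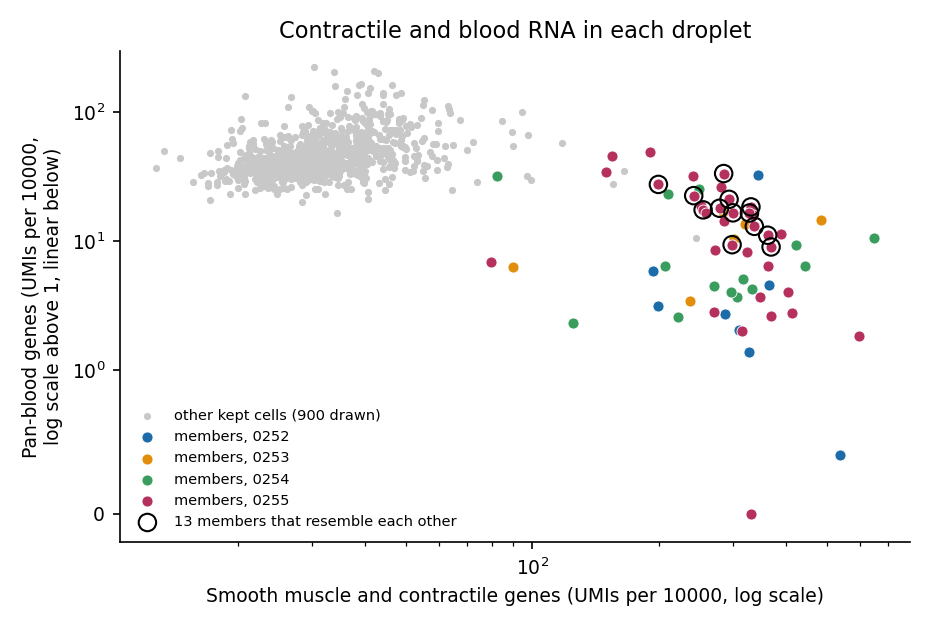
Contractile and pan-blood RNA of each droplet, in UMIs per 10000 (x axis logarithmic, y axis logarithmic above 1 and linear below), for the 63 collagen-producing cells coloured by hashtag and 900 other kept cells drawn at random (grey). The 13 members that resembled each other are circled, and they lie between 9.04 and 33.5 on the y axis.

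The members varied more in some genes than counting gives. Each of the 63 was drawn down to 5000 UMIs, and the variance over the mean of a gene is near 1 when only counting varies. Among the chosen genes examined in this way, *ACTC1* had the widest spread, from 0 to 117 UMIs with a median of 10. Its variance was 25.2 times the mean, or 13.5 times without the droplet with 117 UMIs. *KRT18* (1 to 64 UMIs, 9.02 times), *ACTA2* (0 to 35, 6.16 times) and *TAGLN* (0 to 48, 6.15 times) also varied. *TGFBI* (0 to 11, 1.35 times) and *COL4A1* (0 to 11, 1.62 times) were close to even. Without 0255 the ratio for *ACTC1* was 53.3 over 28 members (29.2 without the top droplet) and that for *KRT18* 8.16. For *ACTA2* it was then 11.3, for *TAGLN* 7.92, for *COL4A1* 2.12 and for *TGFBI* 1.07.

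Some genes varied together across the 63 droplets, which share 1 library and are given as a description. *TAGLN* and *ACTC1* had a Spearman correlation of 0.42, and keratins *KRT8* and *KRT18* against *FN1* one of -0.53. Without 0255 these were 0.46 and -0.63 over 28 members.

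The members had higher counts of their hashtag than the other cells. The hashtag antibodies recognise B2M and CD298, the sodium pump subunit encoded by *ATP1B3*. The median count of a cell's own hashtag was 947, 1397, 3383 and 2298 UMIs in the members of 0252 to 0255 and 499, 614, 698 and 740 in the other cells of the same hashtags. The ratio of medians was 1.90, 2.28, 4.85 and 3.11, and 7 of 8, 4 of 6, 14 of 14 and 33 of 35 members lay above the other cells' median. The RNA of the targets was no higher: *B2M* was 883 CPM (829.7 to 939.7) against 1050.4 CPM and *ATP1B3* 154 CPM (132 to 179) against 167 CPM. Of 14 measured HLA class I and hashtag target genes, none passed 4-fold in either direction. What gave the higher counts was not tested.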

How the data were processed

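The gene expression library and its hashtag antibodies were deposited as 1 table of raw UMI counts (32738 genes, 4 hashtags, 10836 barcodes). Per the labels, the authors made the counts with Cell Ranger 6.0.1 against hg19. A second deposited table gave the authors' hashtag call of each barcode, which was used as it stands. The 8488 single-hashtag barcodes were limited as described, summed and expressed as CPM in Python 3.11.15 (numpy 2.4.6, scipy 1.17.1, pandas 2.3.3). A gene was measured with at least 10 CPM in either group and called at 4-fold. Counts under 3 in a group were set to 3 for a ratio. Where a symbol had several rows, the row with most UMIs was used, and 6 listed genes were not analysed here. Some further items are not reported here. No doublet caller was applied to the reported values beyond the hashtag calls, and Scrublet (scanpy 1.11.5, expected rate 6%) served as an alternative. With 1 library no group comparison was tested. The members and gene lists were chosen with earlier results of these data known. Named genes were drawn, within each list, from the more abundant ones and from those with high or low ratios, besides the given markers. Not every list's most abundant gene was named above, such as *TIMP1* (897 CPM in the members), *BAX* (341), *DLK1* (293) and *HOXB9* (42.9). Beyond the lists, some were named from the 20 highest ratios (at least 100 CPM in members) and the 10 lowest (at least 500 CPM in other cells). Examples near or at 0 (such as *MYH11*, *DES*, *DCN*, *KITLG*, *VCAM1* and *DLL4*) and those within 4-fold were added after their values were seen. Scripts were tested on simulated data. Promoters came from RefSeq (GRCh38.p14) and were placed on hg19 by exact match, and gene positions from GENCODE on hg19.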

Additional observations from a re-analysis of the deposited data

Results flagged for a closer look

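Barcodes outside the kept cells also carried the collagen RNA. Of 1339 barcodes called doublets, 40 had at least 20 UMIs of *COL1A1*, *COL1A2* and *COL3A1* (2.99%, exact 95% interval 2.14 to 4.05), and of 938 single-hashtag barcodes past a limit on UMIs, genes or mitochondrial share, 37 did (3.94%, 2.79 to 5.40). Both drew attention because these barcodes are in neither group of the gene comparisons and the share in kept cells was 0.834% (0.642 to 1.07). Together they outnumbered the kept members, which were 45.0% of the 140 barcodes with that much collagen RNA. Within the 3 limits, 9 of 72 collagen-rich barcodes were called doublets (12.5%, 5.88 to 22.4), against 825 of 9121 others (9.05%, 8.46 to 9.65), and those intervals overlap.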

How the results depend on the processing

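Members and other cells of each hashtag were given side by side, with no paired test, since the members were chosen on their RNA. Of 284 values under alternatives, 243 stayed within their limit of change (1.5 times for a count or a spread, the counting interval for a share, the standard deviation over the 4 hashtags for a list) and 41 moved. A change of direction was defined only for list medians and summed levels, and none of these changed direction. For the summed neutrophil and erythroid levels the standard deviation (24.96 and 51.4 percentage points) was larger than the level, so no fall could count as a move, and their values are given below. The threshold of 20 collagen UMIs and the mitochondrial limit decide how many cells are members: 33 at a threshold of 50 and 36 at a mitochondrial limit of 10%. The share of hashtag 0255 was 3.31% at a threshold of 10, 1.08% at 50, 3.50% with at least 10 collagen UMIs per 10000 and 1.41% without the 13 members that resembled each other. The share of 0253 was 0.100% at a threshold of 50 and 0.659% with no limit on UMIs or genes. At a mitochondrial limit of 10%, below the lower quartile of the other cells (11.5%), the shares were 2.70%, 2%, 6.47% and 11.6% for 0252 to 0255. The share of 0255 was above that of 0254 in each of these settings. Scrublet marked 78 kept cells (1.03%) and no member.

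Counts of genes moved with the definition: at least 4-fold higher were 367 with a minimum of 50 CPM and 1483 with no minimum, and 1629 were at least 2-fold higher. At least 4-fold lower were 121 with a minimum of 50 CPM and 244 at a collagen threshold of 10, and 1385 were at least 2-fold lower. List medians (log2) moved as follows. Fibrillar collagens outside the rule were 7.04 at a threshold of 50, 6.18 at the 10% mitochondrial limit and 8.10 against other cells with 0 collagen UMIs. Mesenchymal transcription factors were 4.53 at 50 and 4.74 at the 10% limit, and neutrophil genes -4.71 at the 10% limit. At a threshold of 10, pan-blood genes had a median of -1.80 and a summed level of 32.4%, and macrophage genes 57.6%.

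Leaving out each hashtag in turn gave medians of 4.07 to 6.40 for matrix glycoproteins (6.50 with all; the lowest was without 0255 and its measured genes were chosen anew, and the 27 genes measured with all members gave 6.40 there), 5.11 to 6.49 for transcription factors, -2.74 to -2.14 for pan-blood, -4.07 to -2.58 for neutrophil and -1.86 to -1.04 for macrophage genes, whose summed level was 34.0% to 46.1%. The summed neutrophil level was 3.97% without 0255 and 14.4% to 17.4% without another hashtag, and the erythroid level was 16.7% without 0253 and 28.8% to 37.6% without another. Under the other alternatives the neutrophil level ran from 3.59% (mitochondrial limit of 10%) to 22.1% (threshold of 10), and the erythroid level from 25.3% to 32.9%. The members' summed depth sets a floor of 2.63 CPM, and with 1 library no value has a replicate error.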

Other observations

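The 10 genes with the lowest ratios were picked among those with at least 500 CPM in the other cells. Besides *PRTN3*, *MPO* and *AIF1* (138 against 747 CPM) they included the histone gene *HIST1H4C* (291 against 1466 CPM), the chromatin protein *HMGB2* (165 against 507 CPM), *VAMP8*, *ARHGDIB*, *S100A4*, the mitochondrial chaperone *HSPD1* (341 against 912 CPM) and the fatty acid carrier *FABP5* (336 against 879 CPM). *HSP90AA1* was 1244 CPM against 2565 CPM. Ribosomal protein genes made up 16.5% of the members' UMIs and 20.5% of those of the other cells.
The count of the hashtag varied with collagen RNA among the kept cells. In 0255 the median count of that hashtag was 712 UMIs in its 1355 cells with 0 collagen UMIs, 1661 in the 19 cells with 3 to 9, 1867 in the 17 cells with 10 to 19 and 2298 in the 35 members. The 17 cells with 10 to 19 had a median of 7873 gene UMIs. In the other hashtags the series did not run evenly: from 3 to 9 to 10 to 19 collagen UMIs the median went from 2220 to 514 in 0252, from 1154 to 635 in 0253 and from 1946 to 719 in 0254, the latter classes holding 3, 6 and 2 cells.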
